A study of Mus musculus with 14 samples.

Results

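The genes described are 41 interferon-stimulated genes, taken by gene symbol. Each symbol belonged to 1 of the 56941 gene IDs in the count tables, so all 41 were found. They are genes known from other systems to be switched on by interferons, and they were grouped here by the role of their proteins. Earlier results of these data were known when they were chosen. Their RNA was measured in 14 libraries of polyadenylated RNA from mouse embryonic forebrain. At embryonic day 12.5 (E12.5) the tissue was telencephalon, with 3 ff and 3 dcKO libraries. At E18.5 it was cerebral cortex, with 4 ff and 4 dcKO libraries. Every animal came from crosses with floxed alleles of Sbno1 and Trp53, and ff is read as floxed alleles without the driver. The dcKO animals carried the Emx1-Cre driver in addition, which gives a double conditional knockout. Emx1-Cre is active in the dorsal telencephalic lineage, which gives rise to cortical excitatory neurons and glia, and not in microglia or blood vessels. No group carried the driver alone or a single knockout, so effects of the driver and of each deletion cannot be told apart. Sbno1 is named after its fly counterpart, strawberry notch, and Trp53 encodes the transcription factor p53.

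Interferons are secreted proteins that cells release after sensing viral or misplaced nucleic acid. Type I interferon binds the receptor pair Ifnar1 and Ifnar2, the kinases Jak1 and Tyk2 activate Stat2, and Stat2 works with Irf9 in a complex that binds the interferon-stimulated response element (ISRE) in promoters. Type II interferon acts through the receptor of Ifngr1 and Ifngr2 on another element, the gamma-activated sequence (GAS). In brain, microglia, border macrophages, vascular cells, neurons and astrocytes can all express such genes.

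The promoter sequences below are shown because the ISRE is the element that the named pathway acts on and because 2 of these genes share theirs. Promoters of 250 bases before and 50 bases after the start were available from RefSeq (GRCm38.p6) for 30 of the 41 genes. The letters searched for the ISRE were GAAA, any 2 bases and GAAA, on both strands, with overlapping matches counted. They occurred in 18 of the 30 promoters (60.0%), and in 3.99% of all 27025 genes with a promoter of the same length. For the GAS the letters TTC, any 3 bases and GAA occurred in 7 of the 30 (23.3%) and in 9.55% of all genes. Among the 30, the ISRE letters were in 13 of the 22 genes that were higher at E18.5 in the test described further on, and in 5 of the 8 others. A match describes these letters and does not show a bound site. The windows run 5′ to 3′ on the strand of the gene and end at or before the last base upstream of its start. Capitals mark the bases of the matches, and TTTC at both ends is the same motif on the opposite strand.
Isg15: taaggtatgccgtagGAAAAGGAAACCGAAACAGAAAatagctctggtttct
Ifit1: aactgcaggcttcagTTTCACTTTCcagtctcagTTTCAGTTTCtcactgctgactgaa
Ifit3: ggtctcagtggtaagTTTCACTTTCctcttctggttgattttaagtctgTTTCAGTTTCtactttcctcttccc
Ifit3b: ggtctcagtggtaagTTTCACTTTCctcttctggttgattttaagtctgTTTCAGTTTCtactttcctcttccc
Oas1a: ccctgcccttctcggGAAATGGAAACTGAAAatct
Bst2: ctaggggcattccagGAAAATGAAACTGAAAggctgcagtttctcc
Gbp2: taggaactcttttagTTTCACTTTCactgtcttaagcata
Gbp3: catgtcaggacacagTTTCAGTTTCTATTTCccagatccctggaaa
Irgm1: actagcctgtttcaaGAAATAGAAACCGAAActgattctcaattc
The windows lie at chr4:156200860-156200911 (minus strand), chr19:34640770-34640828 (plus strand), chr19:34583358-34583431 (plus strand), chr19:34607754-34607827 (plus strand), chr5:120907526-120907560 (minus strand), chr8:71537572-71537617 (minus strand), chr3:142620589-142620628 (plus strand), chr3:142559984-142560029 (plus strand) and chr11:48871421-48871465 (minus strand). Ifit3 and Ifit3b, which lie next to each other on chromosome 19, had the same 74 bases, base for base. Genes of the 30 without the ISRE letters were Irf7, Irf9, Ifit2, Oasl1, Oasl2, Cmpk2, Samd9l, Dtx3l, Ifi44, Ifi35, Xaf1 and Lgals3bp. Promoters of Usp18, Dhx58, Zbp1, Oas2, Mx1, Mx2, Iigp1, Parp9, Parp14, Ifi27 and Rtp4 were not matched.

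Several features of the libraries bear on every value below. Total expected counts (M, 1000000) were 4.92 M in E12.5 ff replicate 1, 5.98 M in E18.5 dcKO replicate 1 and 42.0 to 82 M in each of the remaining 12. Chromosome Y genes and Xist marked all dcKO libraries as male, and E12.5 ff replicate 3 and E18.5 ff replicates 2 and 4 as female. At E12.5 the Sbno1 level of ff, 106 ± 9.29 CPM (counts per 1000000, scaled by TMM within each stage), stood above that of dcKO, 70.2 ± 5.77 CPM (SD, n = 3 each). At E18.5 the levels were 73.6 ± 1.31 CPM for ff and 72.4 ± 4.24 CPM for dcKO (SD, n = 4 each), so its counts did not check the genotype labels there, and the E18.5 dcKO samples are called the libraries labelled dcKO. Trp53 at E18.5 had 75.0 ± 2.53 CPM (ff) and 65.0 ± 6.25 CPM (labelled dcKO). Its log2 fold change was -0.20 (adjusted p = 0.0319 in edgeR), and the groups overlapped. The forebrain marker Tbr1 was present at both stages in every group, at means of 104 CPM or more. At E18.5, 4 of 10 cortical markers were higher and 5 lower in the libraries labelled dcKO, in the edgeR test described further on. Over all genes tested, 15.6% were higher and 16.6% lower. Neurod6 of excitatory neurons was lower and Pax6 of progenitors higher, but the list as a whole was split. Emx1, another of the 10 and the gene the driver is named after, was lower at E18.5 (log2 fold change -0.81, adjusted p = 8.3e-06 in edgeR). At E12.5 it was lower as well (-0.96, adjusted p = 0.00833 in edgeR), and the groups did not overlap at either stage. Why Emx1 was lower was not tested. In bulk tissue, fewer cells of a type and less RNA per cell cannot be told apart. Nothing in the labels says whether replicates were separate animals or litters, so the p-values measure only the spread between these samples.

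At E12.5 no interferon-stimulated gene passed the test. Of the 41 genes 39 had enough counts, and 0 were called at an adjusted p under 0.05 in edgeR, where 34 of 17853 genes (0.190%) were called in either direction. At an unadjusted p under 0.05 there were 4, namely Ifit2, Ifit3b, Parp9 and Dtx3l, all lower in dcKO, where 19.2% of all genes tested were under it. DESeq2's Wald test called 1 of these genes, lower in dcKO, and 1209 among all genes. Limma-voom called 0 of them and 205 among all genes. The median log2 fold change (dcKO over ff) was -0.20, beside 0.01 over all genes tested, with 28 negative and 11 positive. Ddx60 (0.49) and Gbp2 (0.35) passed the count filter only through the dcKO libraries, so a higher value there was part of how they came to be tested. Ifit1, Zbp1, Oasl1, Mx2 and Iigp1 passed it only through both groups together. All of these genes enter the 39 and the median. That median depended on 1 library. Replicate 3 of ff, the female one, was the highest of the 6 libraries in 27 of the 41 genes, where it was highest in 14.2% of all tested genes. Without it the median was 0.12. All dcKO libraries lay below all ff libraries in 5 genes (Ifit2, Ifit3b, Ifih1, Oas3 and Dtx3l), a pattern found in 13.2% of all tested genes. Cmpk2 was the 1 gene of the 41 with all dcKO above all ff, and the share of all tested genes with that pattern was not worked out.

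Dtx3l, an E3 ubiquitin ligase that acts with Parp9, came nearest to the threshold at E12.5. In replicate order it was at 9.51, 8.10 and 11.9 CPM across the ff replicates, against 5.34, 6.72 and 5.54 CPM across the dcKO ones. The groups did not overlap, and the fold change came to -0.75 (SE 0.18, adjusted p = 0.0904 in edgeR). In the authors' deposited table Dtx3l had a log2 fold change of -0.59 with an adjusted p of 0.0138. Parp9 starts beside it on the other strand, with exons that overlap, and was at 7.23, 3.57 and 5.82 CPM across the ff replicates, against 3.33, 3.22 and 3.74 CPM across the dcKO ones. Its fold change of -0.64 (SE 0.25) had an adjusted p of 0.219 in edgeR. Whether reads of the overlap were assigned by strand is not given in the sources used here.

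At E18.5 interferon-stimulated genes were higher in the libraries labelled dcKO. Of 38 genes with enough counts, 28 were higher and 0 lower at an adjusted p under 0.05 in edgeR. Over all 17974 genes tested, 15.6% were higher and 16.6% lower. The genes were chosen with earlier results of these data known, so setting the count beside these shares is not an independent test. At an unadjusted p under 0.05 there were 34 of the 38, where 43.0% of all genes tested were under it. The median log2 fold change was 1.20, with a range of -0.16 to 3.54 and 36 positive values, beside a median of 0.03 over all genes tested. The groups did not overlap in 17 of 41 genes with all 4 dcKO libraries above all 4 ff libraries, as in 16.1% of all genes tested. Zbp1, Oas3 and Mx1 had too few counts to be tested. The genes Ifit1, Ifit3b, Ddx60, Oas2 and Mx2 passed the count filter only through the libraries labelled dcKO, and Oasl1 only through both groups together, so a higher value was part of how these 6 came to be tested. All 6 are among the 28 called and enter the median. Of the 40 genes with an adjusted p in the authors' deposited table, 31 were under 0.05, and all 31 were higher in dcKO. The share of all genes under 0.05 in that table was not worked out, so this count has no background beside it. DESeq2's Wald test, run here, called 31 of 38, all higher, and 6175 among all genes in either direction.

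**Figure D1:**
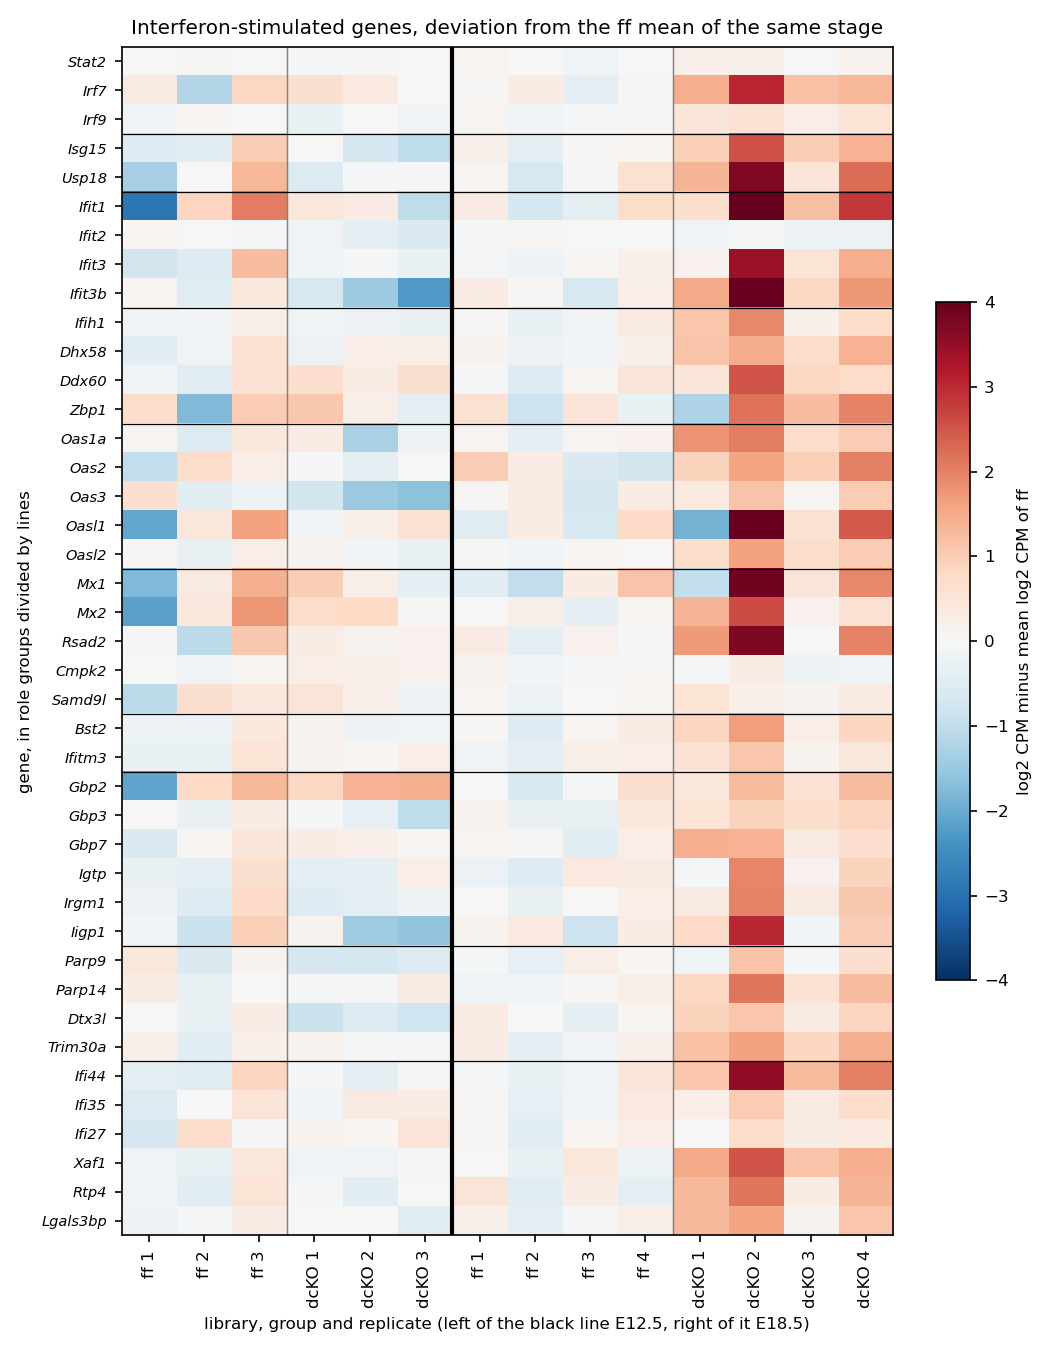
Log2 CPM of each of the 41 genes (rows, in role groups divided by lines) in each of the 14 libraries (columns), as the difference from the mean of the ff libraries of the same stage. The libraries labelled dcKO at E18.5 are mostly red, deepest in replicate 2 and palest in replicate 3, and at E12.5 ff replicate 3 is the reddest column.

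The size of the difference varied among the libraries labelled dcKO. In the median gene, replicates 1 to 4 lay 0.71, 1.92, 0.37 and 1.03 above the ff mean on the log2 CPM scale, and the ff libraries lay between -0.28 and 0.23. Replicate 2 was the highest of the 4 dcKO libraries in 37 of 41 genes and the highest of all 8 in 36, where it was highest in 10.3% of all tested genes. It was at least 2 times the next dcKO library in 15 genes. Replicate 3 was the lowest of the 4 in 25 genes. This library also stood apart in markers of choroid plexus, the tissue that makes cerebrospinal fluid. Their summed level was 10 TPM there, against 2580 to 3350 TPM in the other dcKO libraries and 1470 to 2560 TPM in ff, and the part of this in the interferon-stimulated genes was not tested. Summed over the 41 genes, the deposited TPM (transcripts per 1000000) were 131, 112, 123 and 142 in ff and 212, 344, 168 and 222 in the libraries labelled dcKO. The sums did not overlap, and the lowest dcKO library was replicate 3. Relative to ff, TPM ran higher in the libraries labelled dcKO than CPM did, also for some genes with level counts. The gene Adar averaged 160.3 CPM in ff and 160.5 CPM in dcKO, but 53.5 and 60.3 TPM. Sbno1 averaged 73.6 and 72.4 CPM, but 16.9 and 21.7 TPM. How much of the gap between the sums comes from this scale was not tested. Without dcKO replicate 2 the genes higher numbered 22, of which 21 were among the 28, and the median log2 fold change was 0.81. Without dcKO replicate 3 there were 32, with all 28 among them, and without replicates 2 and 3 together, an alternative chosen after seeing the data, there were 22. The 3 other dcKO libraries lay above all ff libraries in the same 17 of 41 genes as all 4 did. Replicate 2 was the highest dcKO library in most genes, so leaving it out could hardly change this count, which is no check on it.

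**Figure D2:**
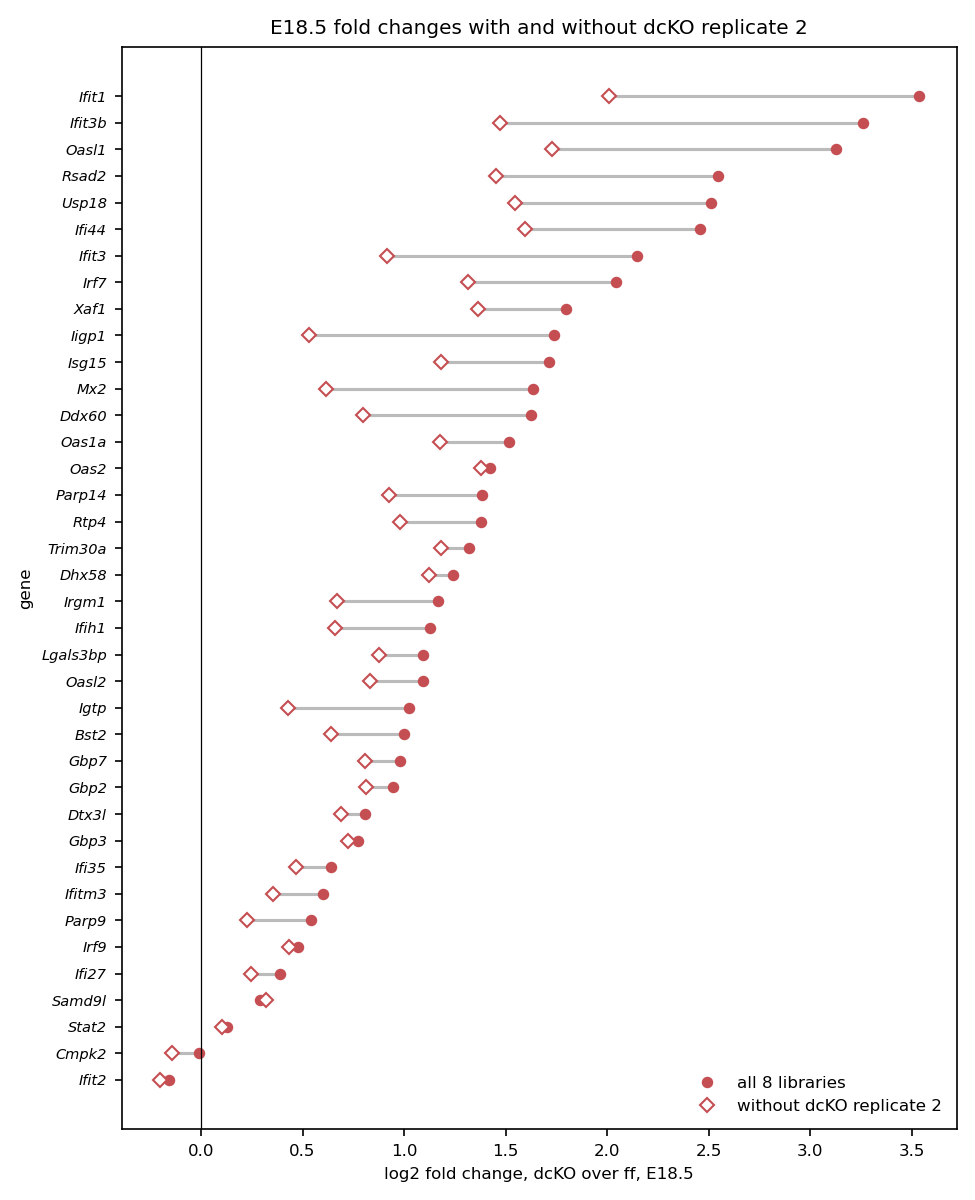
Log2 fold change (dcKO over ff) at E18.5 of the 38 genes tested, with all 8 libraries (filled circles) and without dcKO replicate 2 (open diamonds). Every gene but Ifit2 and Cmpk2 lies right of 0 under both, and the longest shifts are those of Ifit3b, Ifit1 and Oasl1.

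Calls of single genes depended on which libraries were included. In the 8 fits that each left out 1 E18.5 library, 13 of the 28 genes passed every time: Irf7, Irf9, Isg15, Dhx58, Oas1a, Oasl2, Gbp3, Gbp7, Parp14, Dtx3l, Trim30a, Ifi44 and Xaf1. The other 15 lost the call in at least 1 of these fits. The number called was 16, 13 and 14 without ff replicates 1, 2 and 3, and 17 without dcKO replicate 4. With sex as a covariate 12 of 38 were called, and with the male libraries alone 9 of 41. Among all genes these 2 fits called 4779 and 4523 in either direction, against 5779 in the main fit. The calls of these genes thus fell more than those of all genes. Limma-voom called 19, with 18 of the 28 among them, and ended the calls of Usp18, Ifit1, Ifit3b, Ifih1, Oasl1, Mx2, Rsad2, Bst2, Rtp4 and Lgals3bp. All 28 kept a positive fold change in every one of these fits.

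Among the transcription factors of the response, Irf7 and Irf9 rose at E18.5 and Stat2 did not pass the test. Irf7, which amplifies type I interferon production, was at 0.76, 0.905, 0.558 and 0.751 CPM across the ff replicates, against 2.08, 6.37, 1.69 and 1.89 CPM across those labelled dcKO. Every dcKO library lay above every ff library, and replicate 2 stood apart. The difference on the log2 scale was 2.05 (SE 0.44, adjusted p = 0.00622 in edgeR), and 1.31 without that library (adjusted p = 0.00244). Irf9, the DNA-binding subunit of the ISRE complex, was at 16.1, 13.9, 14.1 and 15.5 CPM across the ff replicates, against 20.8, 22.4, 17.8 and 22 CPM across those labelled dcKO. The groups did not overlap and replicate 2 was close to replicate 4, with a log2 fold change of 0.48 (SE 0.09, adjusted p = 0.00157 in edgeR). Stat2, a partner of Irf9, was at 31.6, 29.7, 26.8 and 29 CPM across the ff replicates, against 33.9, 33.4, 29.1 and 32.2 CPM across those labelled dcKO. The groups overlapped, and its fold change, 0.13 on the log2 scale (SE 0.07), fell short of the threshold (adjusted p = 0.184 in edgeR). Exons of Irf9 overlap Rnf31 on the same strand and those of Irf7 overlap Phrf1 on the other, so their reads may be shared.

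Both genes of the ISG15 system rose. Isg15, a ubiquitin-like modifier that is joined to other proteins, was at 0.847, 0.561, 0.744 and 0.77 CPM across the ff replicates, against 1.44, 4.37, 1.47 and 1.97 CPM across those labelled dcKO. The lowest dcKO library lay above the highest ff library, and replicate 2 was the highest. On the log2 scale the fold change came to 1.72 (SE 0.34, adjusted p = 0.00268 in edgeR). Usp18, the protease that removes ISG15 and dampens receptor signalling, was at 0.588, 0.332, 0.502 and 0.845 CPM across the ff replicates, against 1.44, 7.40, 0.781 and 2.65 CPM across those labelled dcKO. Replicate 3 lay within the ff range, so the groups overlapped. EdgeR gave a log2 fold change of 2.51 (SE 0.72, adjusted p = 0.0345), and without ff replicates 1, 2, 3 or 4 or dcKO replicate 4 its adjusted p was 0.0587 to 0.0969.

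The IFIT genes encode proteins that bind viral RNA and hinder its translation, and they lie in 1 cluster on chromosome 19. Ifit1 and Ifit3b rose, and both came to be tested only through their dcKO libraries. Ifit3 and Ifit2 did not pass the test. Ifit1 was at 0.38, 0.166, 0.223 and 0.525 CPM across the ff replicates, against 0.48, 10.3, 0.727 and 2.34 CPM across those labelled dcKO. Most of the difference lay in replicates 2 and 4, and replicate 1 was within the ff range. The difference on the log2 scale was 3.54 (SE 1.05, adjusted p = 0.0444 in edgeR), and 2.01 without replicate 2 (adjusted p = 0.0177). Its adjusted p was 0.0746 to 0.119 without any 1 ff library or dcKO replicate 4. Ifit3b was at 0.259, 0.204, 0.112 and 0.244 CPM across the ff replicates, against 0.64, 5.70, 0.381 and 0.741 CPM across those labelled dcKO. All dcKO libraries were above all ff libraries, and replicate 2 was far above the rest. On the log2 scale the fold change came to 3.26 (SE 0.97, adjusted p = 0.0394 in edgeR) and fell to 1.47 without replicate 2 (adjusted p = 0.0204). Without any 1 ff library its adjusted p was 0.0894 to 0.108.

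Ifit3, the near copy of Ifit3b with the same promoter window, was at 1.19, 1.10, 1.34 and 1.45 CPM across the ff replicates, against 1.44, 14.3, 1.85 and 3.55 CPM across those labelled dcKO. Replicate 1 lay within the ff range. The fold change of 2.15 on the log2 scale (SE 0.75) fell short with all libraries (adjusted p = 0.0728) and was 0.92 without replicate 2 (adjusted p = 0.0279, both in edgeR). Reads that fit both copies may have been split between them. Ifit2, whose neighbour is Ifit3, was at 13.4, 14.2, 13.7 and 13.6 CPM across the ff replicates, against 12.3, 13.2, 11.9 and 11.7 CPM across those labelled dcKO. It was the 1 gene of the 41 with all dcKO libraries below all ff libraries, with a log2 fold change of -0.16 (SE 0.08, adjusted p = 0.134 in edgeR). The share of all tested genes with that pattern at E18.5 was not worked out. On the log2(TPM + 1) scale its difference was 0.06, of the opposite sign.

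**Figure D3:**
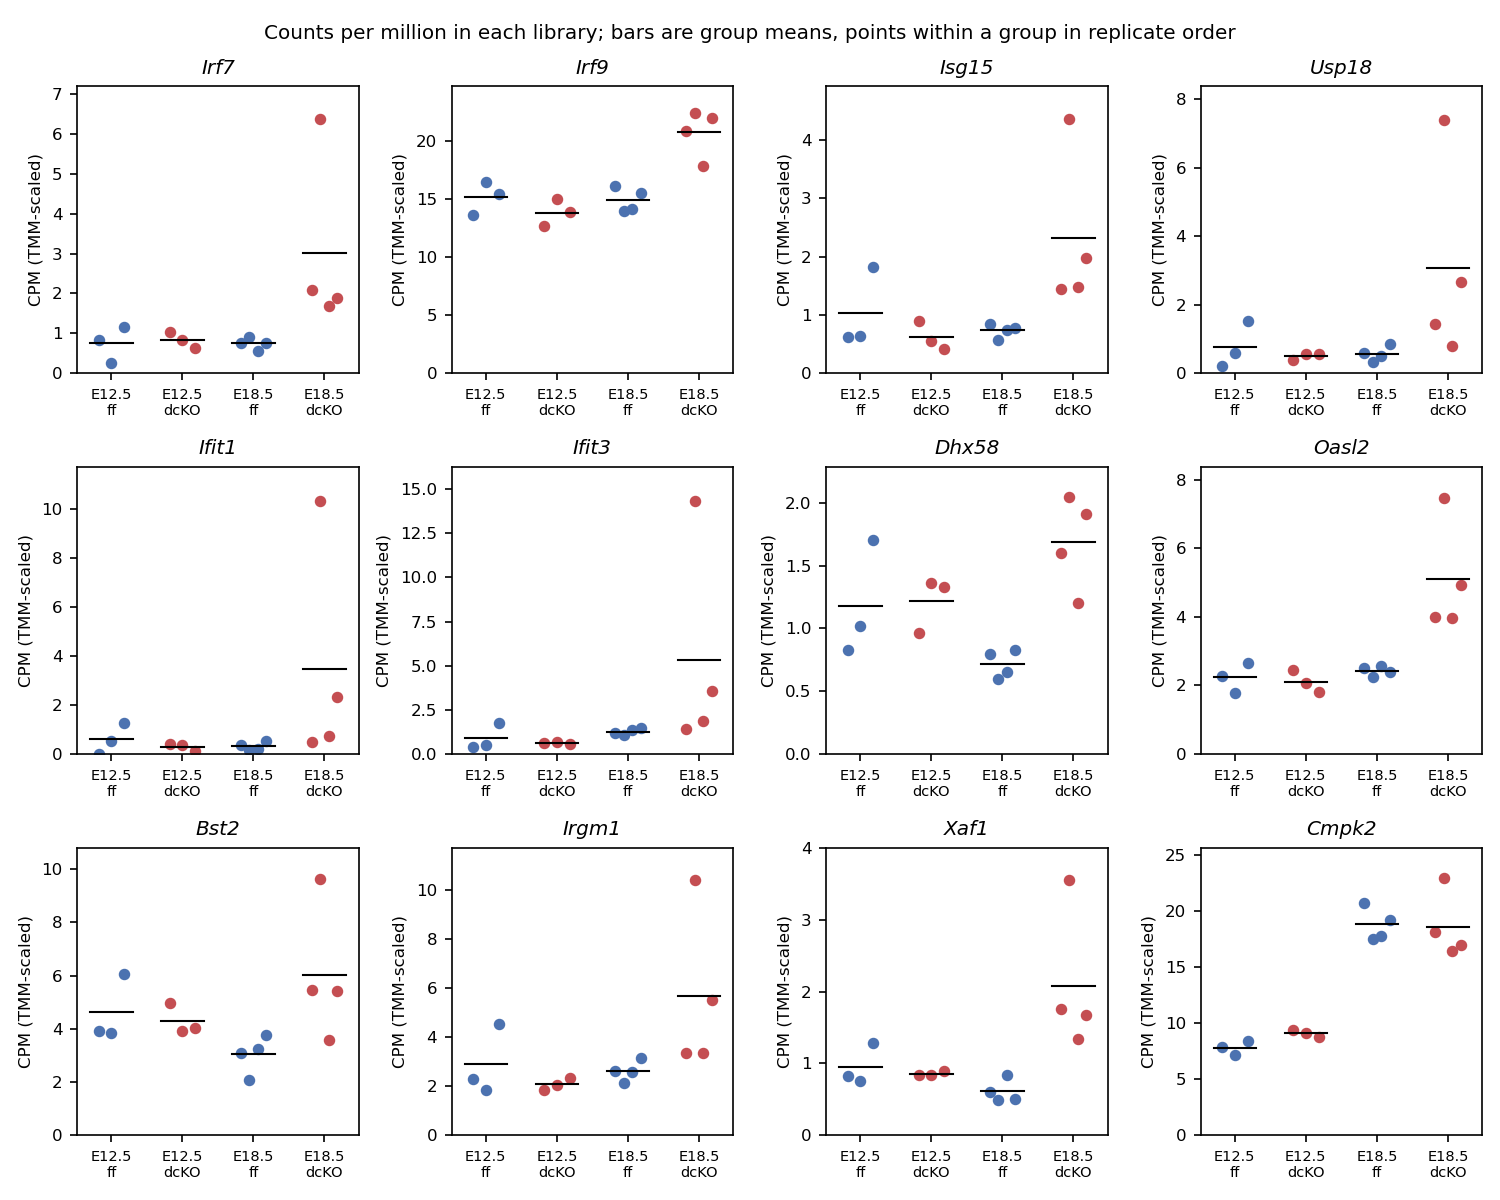
CPM of 12 of the genes in each library (points, in replicate order from left to right within a group), with group means as bars. Replicate 2 is the highest point of the E18.5 dcKO group in each panel, the spread of that group is narrow for Irf9 and wide for Ifit1 and Ifit3, and Cmpk2 overlaps between the genotypes at E18.5.

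Of the sensors of foreign nucleic acid Dhx58, Ddx60 and Ifih1 rose, of which Ddx60 came to be tested only through its dcKO libraries. Dhx58, a regulator of RNA sensing, was at 0.795, 0.599, 0.651 and 0.826 CPM across the ff replicates, against 1.60, 2.04, 1.20 and 1.91 CPM across those labelled dcKO. The groups did not overlap and all 4 dcKO libraries shared the rise, with a log2 fold change of 1.24 (SE 0.24, adjusted p = 0.00198 in edgeR). Ddx60, a helicase-like cofactor of RNA sensing, was at 0.207, 0.14, 0.242 and 0.319 CPM across the ff replicates, against 0.32, 1.45, 0.418 and 0.39 CPM across those labelled dcKO. Its dcKO libraries other than replicate 2 lay at or just above the highest ff library. The log2 fold change of 1.63 (SE 0.48, adjusted p = 0.0223 in edgeR) became 0.80 without replicate 2, with an adjusted p of 0.156, and without ff replicates 1, 2 or 3 the adjusted p was 0.0539 to 0.0675. Ifih1, which encodes the double-stranded RNA sensor MDA5, had a log2 fold change of 1.13 (SE 0.34, adjusted p = 0.0281 in edgeR). It missed the threshold without ff replicates 1, 2 or 3 or dcKO replicates 1 or 2 (adjusted p = 0.054 to 0.0847). Zbp1, a sensor of left-handed nucleic acid, was at 0.104, 0.0127, 0.093 and 0.0375 CPM across the ff replicates, against 0, 0.377, 0.182 and 0.332 CPM across those labelled dcKO and was not tested. Exons of Dhx58 overlap the antisense gene Dhx58os.

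In the oligoadenylate synthetase family Oas1a, Oasl2, Oas2 and Oasl1 rose, of which Oas2 came to be tested only through its dcKO libraries and Oasl1 only through both groups together. These enzymes make the second messenger that activates RNase L, or are relatives of them. Oas1a was at 0.518, 0.357, 0.521 and 0.544 CPM across the ff replicates, against 1.76, 2.12, 0.817 and 1.01 CPM across those labelled dcKO. No library of either group reached into the other, and replicates 1 and 2 were the highest. EdgeR gave a log2 fold change of 1.52 (SE 0.33, adjusted p = 0.00413). Oasl2 was at 2.50, 2.26, 2.57 and 2.40 CPM across the ff replicates, against 4.0, 7.46, 3.96 and 4.94 CPM across those labelled dcKO. The ff libraries were tightly grouped and every dcKO library lay above them, with a log2 fold change of 1.09 (SE 0.19, adjusted p = 0.00109 in edgeR). Oas2 (log2 fold change 1.43, adjusted p = 0.0257) and Oasl1 (3.13, adjusted p = 0.0463) passed the test in edgeR with groups that overlapped. Oas2 missed it without ff replicates 2, 3 or 4 or dcKO replicates 2 or 4 (adjusted p up to 0.112), and Oasl1 without any 1 ff library or dcKO replicates 2 or 4 (up to 0.128). Oas3, with a mean of 0.12 CPM for ff and 0.21 CPM for dcKO, was not tested. Genes of this family are close relatives, so reads could be assigned to another copy.

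Of the MX proteins and nucleotide pathway effectors, Mx2 and Rsad2 rose, of which Mx2 came to be tested only through its dcKO libraries. Rsad2 encodes viperin, which makes a chain-terminating nucleotide, and Cmpk2 a mitochondrial nucleotide kinase that supplies its substrate. The genes are neighbours on chromosome 12, on opposite strands. Rsad2 was at 0.588, 0.344, 0.521 and 0.432 CPM across the ff replicates, against 1.60, 6.63, 0.472 and 1.93 CPM across those labelled dcKO. Replicate 3 lay within the ff range and the other dcKO libraries above it, with a log2 fold change of 2.55 (SE 0.76, adjusted p = 0.0392 in edgeR). Without any 1 ff library or dcKO replicates 1 or 4 its adjusted p was 0.0548 to 0.109. Cmpk2 was at 20.7, 17.5, 17.8 and 19.2 CPM across the ff replicates, against 18.1, 22.9, 16.4 and 17 CPM across those labelled dcKO. The groups overlapped, and the fold change came to -0.01 (SE 0.11, adjusted p = 0.950 in edgeR). Mx2 had a log2 fold change of 1.64 (adjusted p = 0.0345 in edgeR), which was 0.62 without dcKO replicate 2 (adjusted p = 0.297). It also missed the threshold without any 1 ff library or dcKO replicate 1 (adjusted p = 0.0526 to 0.0937). Samd9l had a log2 fold change of 0.29 (adjusted p = 0.112 in edgeR), although all dcKO libraries were above all ff libraries.

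Among the membrane restriction factors Bst2 rose. Bst2 encodes tetherin, which holds budding virus particles at the cell surface, and was at 3.08, 2.08, 3.24 and 3.77 CPM across the ff replicates, against 5.44, 9.63, 3.58 and 5.42 CPM across those labelled dcKO. Replicate 3 lay within the ff range. The difference on the log2 scale was 1.00 (SE 0.30, adjusted p = 0.0298 in edgeR), and without ff replicates 1, 2 or 3 or dcKO replicate 4 its adjusted p was 0.0542 to 0.0791. Ifitm3, which hinders fusion of enveloped viruses in endosomes, was at 6.10, 5.30, 8.02 and 8.18 CPM across the ff replicates, against 10.1, 14.8, 7.48 and 9.33 CPM across those labelled dcKO. The groups overlapped at dcKO replicate 3, and the fold change, 0.60 on the log2 scale (SE 0.22), fell short of the threshold (adjusted p = 0.0597 in edgeR). Without dcKO replicate 3 its adjusted p was 0.0204.

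Of the guanylate-binding and immunity-related GTPases, which act on the vacuoles of intracellular pathogens, Gbp2, Gbp3, Gbp7 and Irgm1 rose. Gbp3 was at 1.66, 1.25, 1.21 and 2.05 CPM across the ff replicates, against 2.24, 2.86, 2.49 and 2.79 CPM across those labelled dcKO. The groups did not overlap and the dcKO libraries were close to each other, with a log2 fold change of 0.77 (SE 0.20, adjusted p = 0.0113 in edgeR). Gbp7 was at 2.56, 2.47, 1.75 and 2.85 CPM across the ff replicates, against 6.56, 6.21, 3.05 and 3.82 CPM across those labelled dcKO. Replicates 1 and 2 were the highest and no library overlapped the other group, with a log2 fold change of 0.98 (SE 0.25, adjusted p = 0.0101 in edgeR). Irgm1 was at 2.63, 2.12, 2.57 and 3.15 CPM across the ff replicates, against 3.36, 10.4, 3.36 and 5.50 CPM across those labelled dcKO. The lowest dcKO libraries were just above the highest ff library. On the log2 scale the fold change came to 1.17 (SE 0.36, adjusted p = 0.0368 in edgeR), and without any 1 ff library or dcKO replicate 4 its adjusted p was 0.0639 to 0.108. Gbp2 had a log2 fold change of 0.95 (adjusted p = 0.0321 in edgeR), which missed the threshold without ff replicates 1, 2 or 3 or dcKO replicates 2 or 4 (adjusted p = 0.0833 to 0.108). Igtp (1.03, adjusted p = 0.0966) and Iigp1 (1.74, adjusted p = 0.0906) did not pass the test in edgeR. Exons of Igtp overlap its relative Irgm2 on the same strand.

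Parp14, Dtx3l and Trim30a rose, and Parp9 did not pass the test. Parp14, an ADP-ribosyltransferase, was at 1.52, 1.57, 1.78 and 2.01 CPM across the ff replicates, against 3.04, 7.76, 2.58 and 4.12 CPM across those labelled dcKO. No dcKO library reached down to ff, and the fold change came to 1.38 (SE 0.31, adjusted p = 0.0066 in edgeR). Dtx3l was at 3.66, 2.88, 2.23 and 3.08 CPM across the ff replicates, against 5.44, 6.29, 3.74 and 5.38 CPM across those labelled dcKO. All dcKO libraries lay above all ff libraries, though replicate 3 only just. EdgeR gave a log2 fold change of 0.81 (SE 0.19, adjusted p = 0.00592). Parp9, its catalytic partner, was at 3.02, 2.46, 3.76 and 3.27 CPM across the ff replicates, against 2.72, 6.93, 2.98 and 4.92 CPM across those labelled dcKO. Replicates 1 and 3 lay within the ff range, with a log2 fold change of 0.54 (SE 0.27, adjusted p = 0.143 in edgeR). Trim30a, a member of the tripartite motif family of ubiquitin ligases, was at 1.21, 0.765, 0.893 and 1.13 CPM across the ff replicates, against 2.24, 3.10, 1.80 and 2.75 CPM across those labelled dcKO. All 4 labelled dcKO lay above all 4 ff, with a log2 fold change of 1.32 (SE 0.23, adjusted p = 0.001 in edgeR).

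Of the other interferon-induced genes, Ifi44, Ifi35, Xaf1, Rtp4 and Lgals3bp rose and Ifi27 did not pass the test. Xaf1, which encodes a binding partner of the apoptosis inhibitor XIAP, was at 0.605, 0.484, 0.837 and 0.507 CPM across the ff replicates, against 1.76, 3.55, 1.34 and 1.68 CPM across those labelled dcKO. Every dcKO library was above every ff library, and the fold change came to 1.80 (SE 0.32, adjusted p = 0.00125 in edgeR). Ifi44 was at 0.536, 0.472, 0.521 and 0.807 CPM across the ff replicates, against 1.28, 7.07, 1.42 and 2.42 CPM across those labelled dcKO. The groups did not overlap, and the difference was greatest in replicate 2. The difference on the log2 scale was 2.46 (SE 0.56, adjusted p = 0.0114 in edgeR), and with sex as a covariate its adjusted p was 0.0541. Ifi27 was at 4.35, 3.15, 4.56 and 5.09 CPM across the ff replicates, against 4.16, 7.01, 5.21 and 5.54 CPM across those labelled dcKO. The groups overlapped, with a log2 fold change of 0.39 (SE 0.17, adjusted p = 0.102 in edgeR). Rtp4 (1.38, adjusted p = 0.0265), Lgals3bp (1.09, adjusted p = 0.0244) and Ifi35 (0.64, adjusted p = 0.0467) overlapped between the groups at dcKO replicate 3 or 1. Rtp4 missed the threshold without ff replicates 2, 3 or 4 or dcKO replicate 4 (adjusted p = 0.0549 to 0.0758). Lgals3bp missed it without ff replicates 1, 2 or 3 or dcKO replicates 1 or 4 (0.0523 to 0.0818), and Ifi35 without ff replicates 1, 2 or 3 or dcKO replicates 2 or 4 (0.101 to 0.162).

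The genotype difference was larger at E18.5 than at E12.5 in 14 of the 41 genes and smaller in 0, by the genotype by stage interaction in edgeR at an adjusted p under 0.05. It was larger in 7.12% of all 19327 genes in that fit. The 14 were Irf9, Isg15, Usp18, Ifit1, Ifit3b, Ifih1, Dhx58, Oasl2, Gbp3, Dtx3l, Trim30a, Ifi44, Xaf1 and Lgals3bp. The median difference between the stages was 1.35 on the log2 scale, beside -0.03 over all genes. For Dtx3l the difference was 1.51 (SE 0.28, adjusted p = 0.00254 in edgeR), with a lower mean in dcKO at E12.5 and a higher one at E18.5. For Isg15 it was 2.49 (SE 0.63, adjusted p = 0.0151 in edgeR). At E12.5 Isg15 was at 0.62, 0.643 and 1.82 CPM across the ff replicates, against 0.891, 0.549 and 0.42 CPM across the dcKO ones, with ff replicate 3 above the other 5 libraries. The number rests on single libraries of both stages. Without E12.5 ff replicate 3 it was 2, without E12.5 dcKO replicates 1, 2 or 3 it was 9, 3 and 3, and without E18.5 ff replicates 2 or 3 or dcKO replicate 4 it was 7, 6 and 8. Tissue and stage changed together, so they cannot be told apart.

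**Figure D4:**
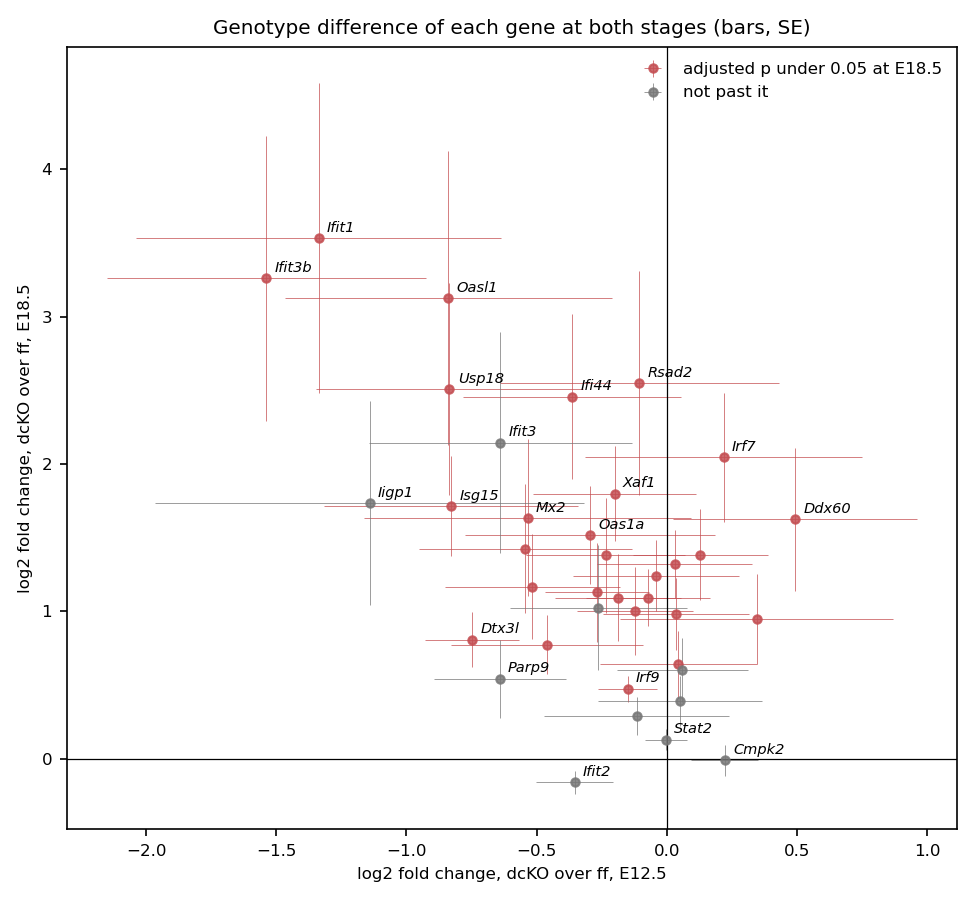
Log2 fold change (dcKO over ff) at E12.5 (horizontal axis) and at E18.5 (vertical axis) of the genes tested at both stages, with bars of 1 SE, in red where the adjusted p at E18.5 was under 0.05. Nearly all points lie above 0 on the vertical axis and most lie left of 0 on the horizontal one, with wide horizontal bars for the genes of low level.

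In ff forebrain the genes differed in level and in their course between stages. On the TPM scale, which accounts for transcript length, Ifitm3 was highest at E18.5 (mean 24.6 TPM), followed by Stat2 (15.4), Cmpk2 (12), Irf9 (11.9), Ifi27 (11.4) and Bst2 (8.81). At the low end were Oas3 (0.05 TPM), Mx1 (0.075) and Zbp1 (0.0775). From E12.5 to E18.5 in ff, 10 of 41 genes were higher and 3 lower in edgeR, where 31.5% and 29.9% of all genes were. The 10 were Stat2, Ifit2, Cmpk2, Samd9l, Ifitm3, Gbp2, Gbp3, Gbp7, Ifi27 and Lgals3bp, and the 3 were Dhx58, Parp9 and Dtx3l. Cmpk2 rose from 7.85, 7.11 and 8.39 CPM at E12.5 to 20.7, 17.5, 17.8 and 19.2 CPM at E18.5, with CPM scaled within each stage, and the log2 difference in the joint fit was 1.30 (SE 0.12, adjusted p = 9.3e-08 in edgeR). Dtx3l fell by 1.71 on the log2 scale (SE 0.20, adjusted p = 1.1e-06 in edgeR). Of the 10 genes that rose with stage in ff, Stat2, Ifit2, Cmpk2, Samd9l, Ifitm3 and Ifi27 were among the 10 tested genes that did not pass the genotype test at E18.5.

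Of 39 tested genes from the rest of the pathway, 12 were higher and 2 lower at E18.5 in edgeR, where 15.6% and 16.6% of all genes tested were, with a median log2 fold change of 0.20. At E12.5 0 of 39 were called in edgeR, and 10 had an unadjusted p under 0.05, as did 19.2% of all genes tested. Of 21 interferon genes recognised by symbol, 0 had a count in any of the 4 libraries labelled dcKO. A count of 0 allows up to 3 counts, which was 0.0557 to 0.502 CPM per gene in these libraries. Elsewhere there were traces of Ifnz (up to 3 counts) and Ifnab (up to 2). Of the 6 interferon receptor genes 2 were higher and 1 lower. Ifngr2, a chain of the type II receptor, fell by 0.70 on the log2 scale (SE 0.06, adjusted p = 1.0e-05 in edgeR), while its partner Ifngr1 rose by 0.35 (SE 0.08, adjusted p = 0.00565). The type I receptor genes Ifnar1 (-0.03) and Ifnar2 (-0.04) did not pass the test.

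Of 10 kinases and transcription factors 6 were higher and 1 lower. Irf8, a factor of microglia and macrophages, rose by 0.98 on the log2 scale (SE 0.21, adjusted p = 0.00333), and Irf3 by 0.26 (adjusted p = 0.0135, both in edgeR). Jak2 fell by 0.22 (adjusted p = 0.00759 in edgeR). Of 13 tested genes of nucleic acid sensing 2 were higher, a share near the 15.6% of all genes tested. They were Rigi, the RNA helicase RIG-I, by 0.97 (SE 0.23, adjusted p = 0.00879), and Tlr7, an endosomal RNA receptor, by 0.62 (adjusted p = 0.0236, both in edgeR). The DNA sensor Cgas (0.54, adjusted p = 0.060) and its adaptor Sting1 (0.10, adjusted p = 0.750) did not pass it. Of 10 brakes on these routes Rnaseh2c rose by 0.45 (adjusted p = 0.0125) and Samhd1 by 0.22 (adjusted p = 0.0356, both in edgeR), and Adar and Trex1 did not pass the test.

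Some markers of microglia were also higher at E18.5. Of 13 tested, 6 were higher and 0 lower in edgeR, where 15.6% and 16.6% of all genes tested were. There were 10 positive and 3 negative fold changes, with a median of 0.34 on the log2 scale. The higher ones included C1qb (0.73, adjusted p = 0.000154), Csf1r (0.52), C1qc (0.58) and C1qa (0.57). P2ry12 (-0.15, adjusted p = 0.336), Siglech (-0.22), Itgam (-0.06) and Tmem119 (0.16, adjusted p = 0.403) did not pass the test. The summed level of the microglia markers was 167, 173, 170 and 213 TPM in ff and 244, 287, 255 and 293 TPM in the libraries labelled dcKO, without overlap. This sum is on the TPM scale, which ran higher in dcKO for some genes with level counts, as given above. Replicate 2 was not the highest for this sum. Of 6 border macrophage markers 1 was higher in edgeR (Pf4, 0.62, adjusted p = 0.0198), a share near the 15.6% of all genes tested. All 6 had positive log2 fold changes, of 0.53 to 0.70 with a median of 0.65. All 6 had an unadjusted p under 0.05 in edgeR, as did 43.0% of all genes tested. The sums of these markers were 44.5 to 87.5 TPM in ff and 83.3 to 127 TPM in the libraries labelled dcKO. Of 10 endothelial markers Flt1 was higher and Slco1c1 lower, shares below the 15.6% and 16.6% of all genes tested. Their sums were 178 to 265 TPM in ff and 217 to 284 TPM in the libraries labelled dcKO. Of 4 tested blood leukocyte markers 0 were called in edgeR, and 0 had an unadjusted p under 0.05. The T cell marker Cd3e and the neutrophil marker Ly6g had means of at most 0.0371 CPM in each E18.5 group. Of 6 tested erythroid markers 0 were called in edgeR, with log2 fold changes of -1.59 to 1.37. Their unadjusted p was under 0.05 in 3, as in 43.0% of all genes tested. Erythroid sums were 3650 to 6190 TPM in ff and 679, 2760, 594 and 2580 TPM in the libraries labelled dcKO. The part of these cell types in the interferon-stimulated genes was not tested.

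**Figure D5:**
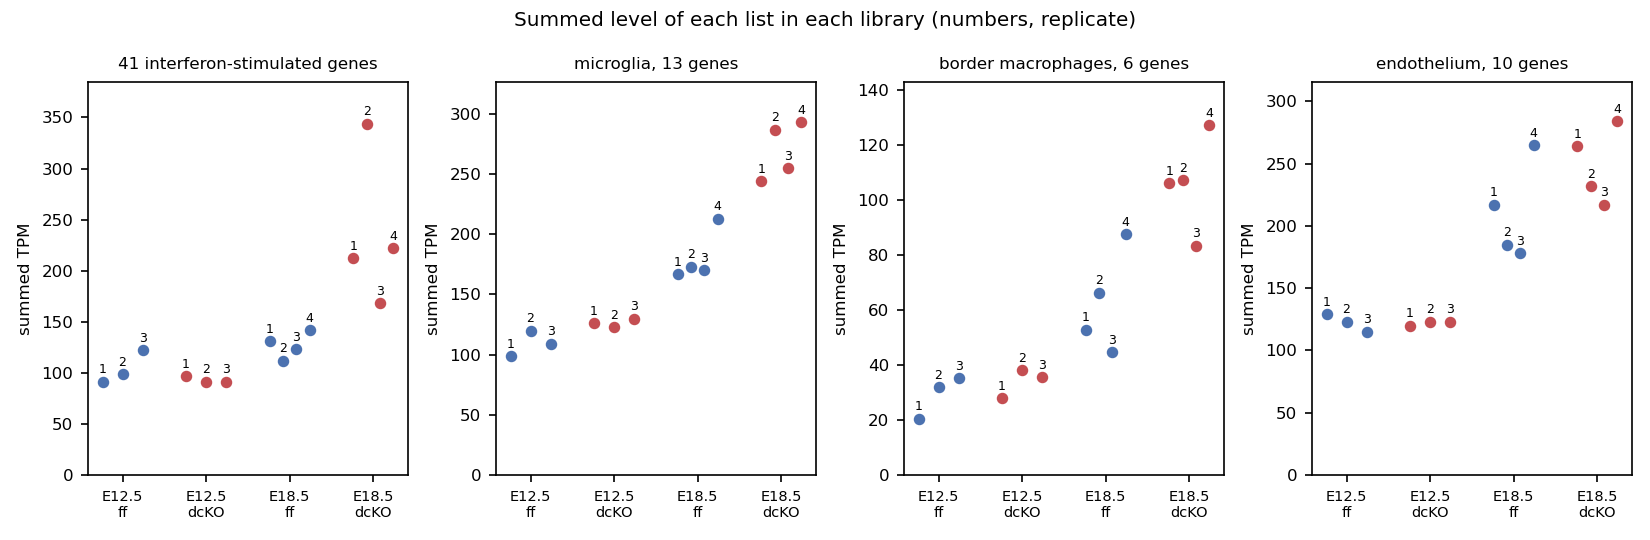
Summed TPM per library of the 41 interferon-stimulated genes and of the markers of microglia, border macrophages and endothelium, with the replicate number over each point. At E18.5 the first 2 panels show no overlap between ff and dcKO, and dcKO replicate 2 leads the first panel and not the others. Relative to ff, TPM ran higher in dcKO at E18.5 than CPM did for some genes with level counts.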

How the data were processed

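The members were taken by symbol, and both they and the gene lists were chosen with earlier results of these data known. The RNeasy Mini Kit was used for extraction, and 1.0 ug of RNA went into TruSeq Stranded mRNA libraries, per the labels. Trim Galore, STAR, RSEM and DESeq2 were used, per the submitters' processing notes; versions, genome build, annotation and the strand setting are not given in the sources used here. The authors deposited RSEM expected counts, without normalization, and TPM values. The authors' deposited comparison tables hold log2 fold changes, p-values with adjusted p, and a mean normalized signal, per the file headers. These log2 values may be shrunken, which the headers do not state.

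Groups came from the genotype word of each table column (dfl read as ff) and the stage of its table. Replicate numbers follow column order and are not those of the sample titles, and library names in many sample descriptions belong to samples of another title. Expected counts were rounded, filtered with filterByExpr, scaled by TMM and compared by the robust quasi-likelihood F test of edgeR (R 4.3.3, edgeR 4.0.16, limma 3.58.1, DESeq2 1.42.0), each stage in its own fit, and the interaction and stage difference in 1 fit of all 14 libraries. Tests were two-sided, with Benjamini-Hochberg adjustment over all genes tested and 0.05 as threshold. CPM, counts per 1000000, use TMM-scaled library sizes. Log CPM used a prior count of 2, and SE is the size of the fold change divided by the root of F. The fits were tested on simulated data.

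Per-library values are given for the 14 genes called at E18.5 with the lowest p and for the gene with the highest mean TPM in each role. Usp18, Ifit1, Ifit3, Ifit3b, Rsad2, Bst2 and Zbp1, and Dtx3l, Parp9 and Isg15 at E12.5, were added after their values were seen. Of the other lists up to 4 called genes with the lowest p are named, and exceptions beside them. Some genes of these lists count in the totals and are not reported by name here. Exon overlaps and neighbours are from GENCODE M21 (GRCm38).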

Additional observations from a re-analysis of the deposited data

Results flagged for a closer look

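In a group of 4 libraries, 1 library was marked where its gap to the nearest other library divided by the whole range exceeded Dixon's critical value. Chance alone marks about 1 in 20 groups. At E18.5 replicate 2 of the libraries labelled dcKO was marked in 5 genes. Irf7 was at 6.37 CPM there and at 2.08 CPM in the next library. Ifit3 was at 14.3 CPM, with the next library at 3.55 CPM. Its near copy Ifit3b was at 5.70 CPM, with the next at 0.741 CPM. The helicase gene Ddx60 was at 1.45 CPM beside 0.418 CPM, and the GTPase gene Iigp1 at 3.97 CPM beside 0.937 CPM. Replicate 2 of ff was marked low for Oas1a, at 0.357 CPM, with the nearest ff library at 0.518 CPM.

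The genotype difference at E18.5 minus that at E12.5 passed the edgeR interaction test in 14 genes. On the log2 scale it was 0.59 for Irf9, 2.49 for Isg15, 3.29 for Usp18, 4.80 for Ifit1 and 4.74 for Ifit3b. Among the RNA sensors it was 1.35 for Ifih1 and 1.24 for Dhx58. It was 1.11 for Oasl2, 1.19 for Gbp3, 1.51 for Dtx3l, 1.25 for Trim30a, 2.76 for Ifi44, 1.95 for Xaf1 and 1.25 for Lgals3bp. In Dtx3l all dcKO libraries lay below all ff libraries at E12.5 and above them at E18.5, and the same held for Ifit3b.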

How the results depend on the processing

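Alternatives were run against the same main result, and some changed more than 1 choice together. At E12.5 the number of interferon-stimulated genes called was 0 in edgeR and 1 by DESeq2's Wald test and in 1 fit of 14 libraries. Among all genes these called 34, 1209 and 1079. The E12.5 median of -0.20 became 0.12 with sex as a covariate and 0.12 with male libraries alone, and ranged from -0.42 to 0.12 with 1 library left out. Without the shallow and the female ff library together, an alternative chosen after seeing the data, it was 0.18. At E18.5 the 28 calls became 19 by limma-voom, 23 by limma-trend on log2(TPM + 1), 17 without the count filter, 12 with sex as a covariate, 9 with male libraries alone and 13 to 32 with 1 library left out. Among all genes the main fit called 5779 in either direction, the fit with sex as a covariate 4779 and male libraries alone 4523. Without dcKO replicates 2 and 1 together, also chosen after seeing the data, there were 18, and 22 without replicates 2 and 3. The E18.5 median was 0.64 on the log2(TPM + 1) scale. The interaction called 22 by DESeq2, 6 without the filter and 2 to 21 with 1 library left out, of which 1 was negative without E18.5 dcKO replicate 2. Cmpk2 at E18.5, at -0.01, was 0.0186 under upper quartile scaling and 0.0239 on the TPM scale, and -0.143 to 0.0497 with 1 library left out. Ifit2 was 0.063 on the TPM scale. The cause of these shifts was not tested. Irf9, Isg15, Dhx58, Oas1a, Oasl2, Trim30a and Xaf1 passed the test at E18.5 under every alternative that gave them a value. Correcting for the length and GC content of transcripts, added after seeing the data, left 29 called. No paired analysis was possible because the library numbers in the table columns do not cross genotype. Genes near 1 CPM rest on few counts in the shallow libraries, E12.5 ff replicate 1 and E18.5 dcKO replicate 1, where 3 counts are 0.61 and 0.502 CPM.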

Other observations

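Beyond the 41 genes, 51 other genes known to be interferon-induced were looked up. This list, too, was chosen with earlier results of these data known, so its counts are not an independent test. At E18.5 18 of 45 tested were higher and 3 lower in the libraries labelled dcKO in edgeR, where 15.6% and 16.6% of all genes were, with a median log2 fold change of 0.68. The 4 called with the lowest p were Slfn5, Ifi204, Ifitm2 and Parp12. Ifi204, of a family of nucleic acid-binding proteins, rose by 1.63 on the log2 scale (SE 0.24, adjusted p = 0.000354 in edgeR). Slfn5, of the schlafen family, rose by 0.93 (SE 0.15, adjusted p = 0.000496), and Parp12, an ADP-ribosyltransferase, by 0.73 (SE 0.14, adjusted p = 0.00177, both in edgeR). Ifitm2, a relative of Ifitm3, fell by 0.45 (SE 0.08, adjusted p = 0.00173 in edgeR). With sex as a covariate 13 were called in either direction, against 21, and among all genes 4779, against 5779. At E12.5 0 of 41 tested were called in edgeR, and 7 had an unadjusted p under 0.05, as did 19.2% of all genes tested.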
